A study of Mus musculus with 6 samples.

Results

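The genes described here are 10 immediate early genes, a class that cells transcribe within minutes of a stimulus and that also responds to handling: Fos, Fosb, Fosl1, Jun, Junb, Egr1, Ier2, Atf3, Nr4a1 and Dusp1. They were taken by symbol from a deposited table of 26969 genes, in which each of the 10 has 1 row. The libraries are poly(A) RNA of wild-type mouse chondrocytes, the cells of cartilage, in 2 groups of 3. The group described as mAC_Mito carries titles and treatment entries of vehicle, and the group described as mAC carries titles and treatment entries of mitochondria. The study set chondrocytes that had received mitochondria, by its title those of osteocytes, beside chondrocytes that had not, and by these labels it cannot be told which group received them. The groups are therefore named after the description, which is also how the table names its columns, and no difference below is given as an effect of mitochondria. No age, passage, culture or animal is given in the labels, and the spread that the p-values measure is that between libraries, which may be technical.

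Immediate early genes need no new protein synthesis to be switched on, because kinases of the MAP kinase cascade and cyclic AMP signalling act on transcription factors that already sit at their promoters. The FOS and JUN proteins pair through leucine zippers to form AP-1, a factor that drives matrix proteases and inflammatory genes in cartilage. Their mRNAs decay fast, and dissociation, a change of medium or delay before lysis is known to raise them.

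Total counts were 63700612, 60151766 and 61353072 in mAC_Mito 1, 2 and 3 and 59116068, 68378213 and 62406047 in mAC 1, 2 and 3. The cells carried cartilage markers: the 11 listed markers, Col2a1 and Acan among them, summed to 2373 to 3349 FPKM (counts divided by gene length and library depth) in mAC_Mito and 2483 to 2923 FPKM in mAC. Of the osteocyte markers, 6 in the table summed to 7.79 to 9.73 FPKM in mAC_Mito and 6.96 to 8.88 in mAC, and the defining Dmp1, Sost and Fgf23 averaged 0.0347, 0.0074 and 0.0157 FPKM in mAC_Mito and 0.0437, 0.0163 and 0 FPKM in mAC. Most of the osteocyte sum was Ibsp, with a mean of 8.45 FPKM in mAC_Mito and 7.68 in mAC. The 4 endothelial markers summed to at most 0.341 FPKM and the 3 erythroid markers to at most 0.208 FPKM in any library. Macrophage markers summed to 67.6 to 111 FPKM in mAC_Mito and 61.4 to 79.0 in mAC. Most of that sum was Lyz2, with a mean of 73.9 FPKM in mAC_Mito and 60 in mAC. The other macrophage markers ranged from Ptprc, at 0.0602 and 0.0534 FPKM in mAC_Mito and mAC, to Cd68, at 8.11 and 7.54. Adipocyte markers were present, with 70.0 to 88.2 summed FPKM in mAC_Mito and 49.3 to 85.7 in mAC. An adipose type is mentioned in the extraction text of the labels, although chondrocytes are named as the source. In bulk RNA, fewer cells of a type and less RNA per cell cannot be told apart.

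Promoter sequences were in the RefSeq table (GRCm38.p6) for 7 of the 10 genes, all but Fosl1, Egr1 and Ier2. The 250 bases before the start are shown for 4 of them, because on the log2 CPM scale (counts scaled to library size) Dusp1 and Nr4a1 had the same highest and the same lowest library, Atf3 had its lowest library where Dusp1 had its highest, and Fos did neither. Capitals mark the whole cyclic AMP response element (TGACGTCA), its core TGACG on either strand, which the whole element contains, and a TATA box (TATAAA).
Dusp1, chr17:26508473-26508722, minus strand: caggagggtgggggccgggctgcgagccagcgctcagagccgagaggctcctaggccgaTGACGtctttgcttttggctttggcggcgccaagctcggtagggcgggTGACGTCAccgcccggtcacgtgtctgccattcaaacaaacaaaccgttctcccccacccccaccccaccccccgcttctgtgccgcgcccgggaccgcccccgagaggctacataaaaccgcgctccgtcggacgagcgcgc
Nr4a1, chr15:101266596-101266845, plus strand: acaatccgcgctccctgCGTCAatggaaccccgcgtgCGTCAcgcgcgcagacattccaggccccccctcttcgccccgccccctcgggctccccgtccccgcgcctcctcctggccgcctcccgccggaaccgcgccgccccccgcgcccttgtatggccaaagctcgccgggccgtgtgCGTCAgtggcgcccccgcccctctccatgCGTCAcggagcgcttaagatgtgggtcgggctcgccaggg
Atf3, chr1:191183334-191183583, minus strand: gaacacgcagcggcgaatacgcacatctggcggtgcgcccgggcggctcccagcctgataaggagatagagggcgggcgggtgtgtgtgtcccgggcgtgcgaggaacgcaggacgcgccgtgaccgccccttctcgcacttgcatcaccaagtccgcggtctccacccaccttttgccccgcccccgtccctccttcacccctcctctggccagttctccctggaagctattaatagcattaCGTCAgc
Fos, chr12:85473640-85473889, plus strand: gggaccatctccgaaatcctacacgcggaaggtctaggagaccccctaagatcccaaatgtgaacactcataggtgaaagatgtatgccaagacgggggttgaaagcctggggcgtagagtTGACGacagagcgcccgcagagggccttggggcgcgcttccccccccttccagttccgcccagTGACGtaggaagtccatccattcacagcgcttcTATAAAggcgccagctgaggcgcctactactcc
Dusp1 was the one gene of the 7 with a whole cyclic AMP response element in this window, at bases -143 to -136 from the start, a motif found in 1.55% of 32817 such windows across the genome. The core was found in 6 of the 7, all but Jun, and in 17.7% of all windows. Nr4a1 had 4 of them, Fos had 2, and Atf3 had 1 at bases -7 to -3. The AP-1 site TGANTCA, which is in 6.75% of all windows, and the CArG box bound by serum response factor, which is in 1.47%, were in none of the 7 windows on either strand. A TATA box was found in the Fos window alone of the 7 and in 12.4% of all windows. These are exact matches of letters in a short window and say nothing of binding, of looser forms of a motif or of sites further upstream. The Dusp1, Nr4a1 and Atf3 windows belong to starts inside the gene models of the table, which begin further upstream, and the Fos window ends at the base before its model.

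The 10 genes spanned a 132-fold range of level. In order of mean FPKM over the 6 libraries they were Dusp1 (44.0), Junb (38.8), Egr1 (32.9), Ier2 (27.1), Jun (18.1), Nr4a1 (9.31), Fos (6.91), Fosl1 (4.46), Atf3 (4.31) and Fosb (0.334). Dusp1 ranked 993 among 26969 genes and Fosb 14245. Ranges did not overlap between Ier2 and Jun, Jun and Nr4a1, or Atf3 and Fosb, and the upper gene of each of these pairs was higher in 6 of 6 libraries. The top of the order was less settled. Dusp1 was above Junb in 4 of 6 libraries, Junb above Egr1 in 5 and Egr1 above Ier2 in 4. Nr4a1 was above Fos in 6 of 6, although their ranges overlapped, and Fos above Fosl1 in 5. Fosl1 was above Atf3 in 3 of 6, so their order cannot be given.

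**Figure D1:**
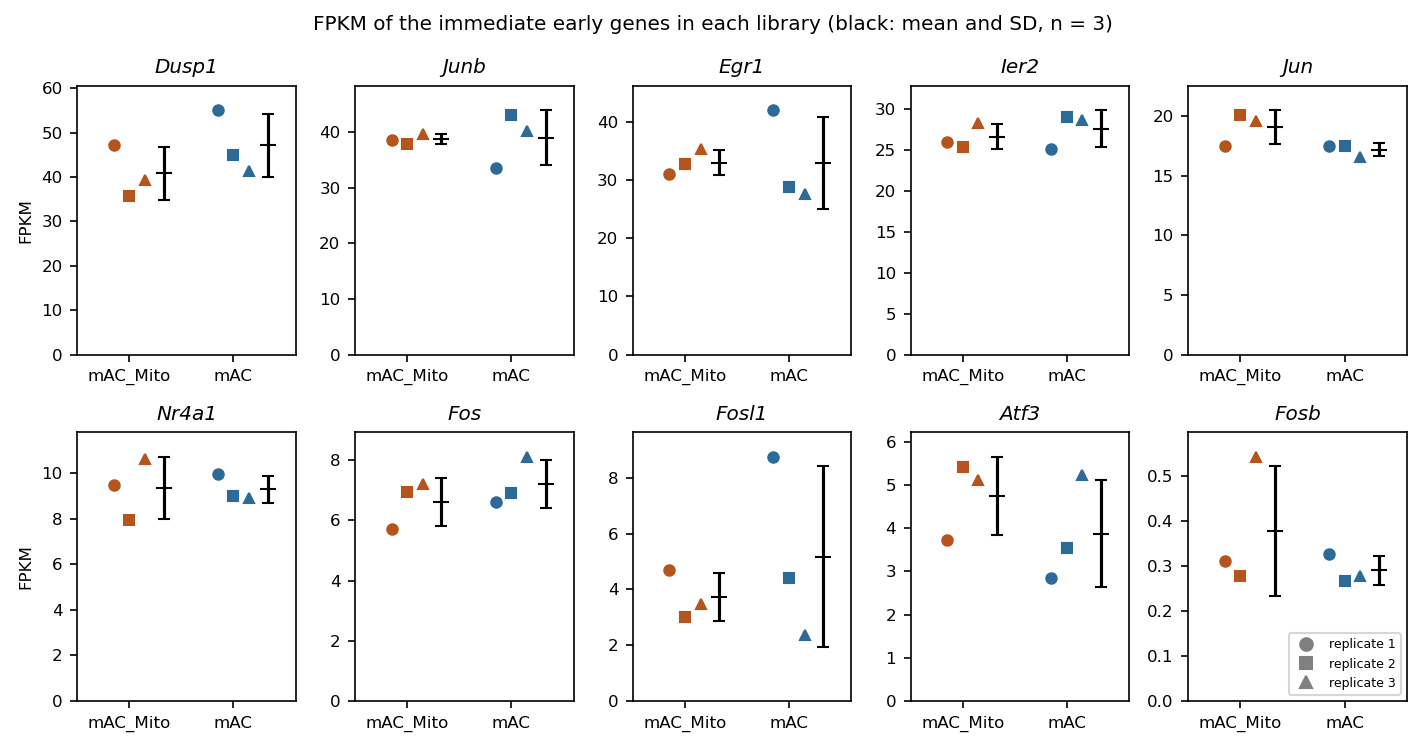
FPKM (vertical axis, from 0) of each gene in the 3 mAC_Mito and 3 mAC libraries, with marker shape for the replicate number and black bars for the mean and SD of 3 libraries. The groups overlap in every panel, and the widest spread relative to its level is that of Fosl1, between 2.36 and 8.75 FPKM.

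None of the 10 genes passed the threshold between the groups in edgeR's quasi-likelihood test with Benjamini-Hochberg adjustment over 17645 genes. All 10 passed the filter on low counts, and each had an adjusted p of 0.99992. Of all genes tested, 0.0113% passed, 0.00567% higher and 0.00567% lower in mAC_Mito. At an unadjusted p under 0.05 there were 0 of the 10 in edgeR, DESeq2 and limma alike, against 3.19% of all genes in edgeR, 2.1% higher and 1.09% lower. The groups did not separate for any of the 10, where 8.31% of all genes had no overlap of log2 CPM between the groups, 3.93% higher and 4.38% lower. The log2 fold changes of the 10 had a median of -0.028, with 3 above and 7 below 0, and a median size of 0.133, beside 0.002 and 0.118 over all genes tested.

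Among the FOS proteins, which need a JUN partner to bind DNA, Fos itself spanned 1.42-fold over the libraries. Fos (ENSMUSG00000021250, chromosome 12, 85473890 to 85477273) was at 5.70, 6.95 and 7.21 FPKM in mAC_Mito 1, 2 and 3 and at 6.60, 6.92 and 8.11 FPKM in mAC 1, 2 and 3. The lowest library was mAC_Mito 1 and the highest mAC 3, with the rest interleaved. On the log2 scale, here and below mAC_Mito minus mAC, the fold change was -0.14 (standard error 0.11, 95% interval -0.40 to 0.11).

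Fosb, whose short splice form is known for accumulating under repeated stimulation in neurons, was the least abundant of the 10. Fosb (ENSMUSG00000003545, chromosome 7, 19302696 to 19310051) was at 0.311, 0.278 and 0.542 FPKM in mAC_Mito and 0.327, 0.266 and 0.278 FPKM in mAC. One library, mAC_Mito 3, stood above the other 5, with 236 counts against 118 to 149. Its fitted change on the log2 scale was 0.34 (standard error 0.29, 95% interval -0.31 to 0.99). Without mAC_Mito 3 it was 0.00.

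Fosl1, which encodes FRA1, a FOS protein without the strong activation domain of FOS, varied most. Fosl1 (ENSMUSG00000024912, chromosome 19, 5447547 to 5455946) was at 4.69, 3.03 and 3.49 FPKM in mAC_Mito and 8.75, 4.41 and 2.36 FPKM in mAC. The highest and the lowest library both belonged to mAC, mAC 1 and mAC 3, so the mAC_Mito libraries lay inside the range of mAC. Its pooled within-group SD was 0.769 on the log2 CPM scale, larger than that of 91.6% of genes tested. Counting error at its mean of 658 counts would give an SD of 0.056. In the fit this gave a log2 fold change of -0.51 (standard error 0.42, 95% interval -1.46 to 0.43), and it was 0.17 without mAC 1 and -0.88 without mAC 3 (edgeR unadjusted p = 0.0162, adjusted p = 0.931, where the 14 alternatives gave 0.810 to 1). The last 2767 bases of the Fosl1 gene model lie within that of Ccdc85b on the opposite strand. Whether these bases are exonic was not read, and whether counting used strand is not given in the sources used here. Ccdc85b was at 5.56, 6.12 and 6.72 FPKM in mAC_Mito and 4.85, 5.47 and 6.34 FPKM in mAC, lowest where Fosl1 was highest.

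Jun and Junb had smaller within-group SDs, 0.092 and 0.104 on the log2 CPM scale, than Fos, Fosb, Fosl1 or Atf3. Jun (ENSMUSG00000052684, chromosome 4, 95049034 to 95052222), a strong activator that pairs with FOS proteins or with itself, was at 17.5, 20.1 and 19.6 FPKM in mAC_Mito and 17.5, 17.5 and 16.6 FPKM in mAC. Libraries 2 and 3 of mAC_Mito were above every mAC library, and mAC_Mito 1 was level with mAC 1 and 2. Between the groups the log2 fold change was 0.12 (standard error 0.10, 95% interval -0.10 to 0.34). Junb (ENSMUSG00000052837, chromosome 8, 84976910 to 84978718), a weaker activator that can hold back Jun, was at 38.6, 37.8 and 39.6 FPKM in mAC_Mito and 33.6, 43.1 and 40.2 FPKM in mAC. All 3 mAC_Mito libraries fell between the lowest and the highest mAC library. For Junb the log2 fold change was -0.03 (standard error 0.10), and the 95% interval, as a fold, ran from 0.841 to 1.15.

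Set beside their relatives Fosl2 and Jund, which are outside the 10, Fosl1, Fosl2 and Fos had shares of their family that ranged over more percentage points than those of Jun, Junb and Jund, and Fosb had a narrower range than any of these. Fosl2 made up 54.3%, 65.7% and 60.9% of the summed FPKM of the 4 FOS genes in mAC_Mito 1, 2 and 3 and 46.0%, 54.3% and 59.3% in mAC 1, 2 and 3. Fosl1 made up 14.1% ± 5.24 in mAC_Mito and 18.8% ± 10.7 in mAC (SD, n = 3), with 8.96% in mAC 3 and 30.1% in mAC 1 as the extremes. Fos held 22.7% to 30.7% in all libraries and Fosb 0.93% to 1.88%. Thus Fosl1 was above Fos in mAC 1, by a ratio of 1.33, and below it in the other 5 libraries, by ratios of 0.291 to 0.822. Of the summed FPKM of the 3 JUN genes, Junb held 37.6% to 41.4%, Jund 40.7% to 42.7% and Jun 16.7% to 20.6%. JUN mRNA exceeded FOS mRNA in every library, 3.27 to 4.19 times in mAC_Mito and 3.07 to 4.12 times in mAC.

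**Figure D2:**
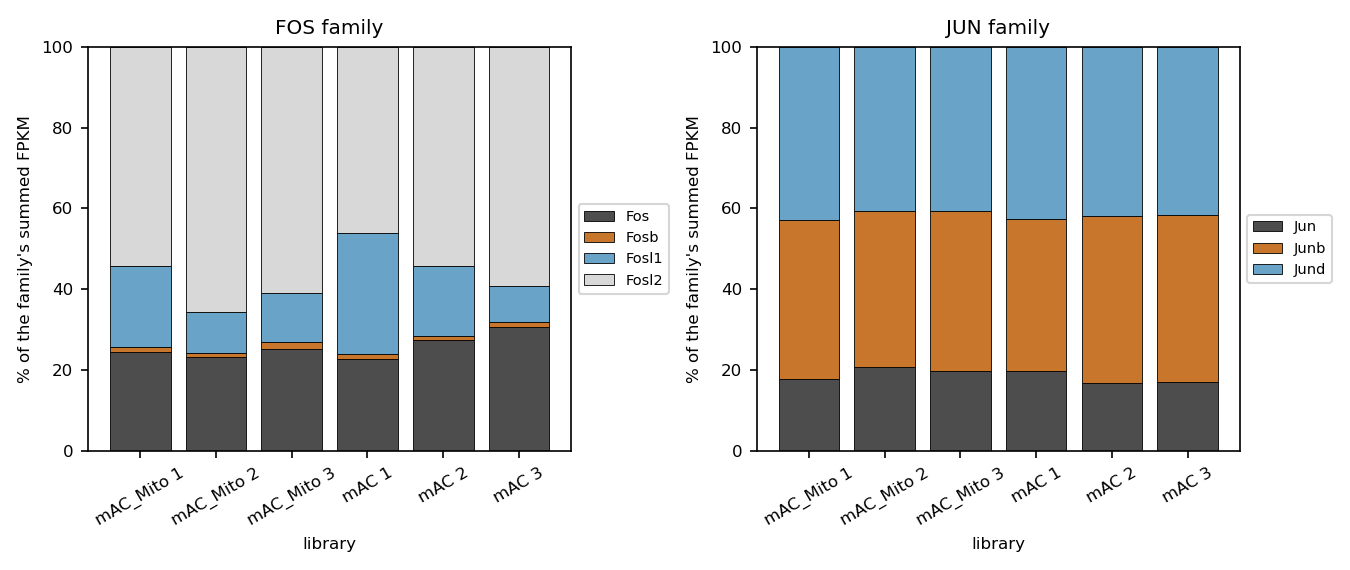
Share (vertical axis, % of summed FPKM) of each gene in the FOS family and the JUN family, for the 3 mAC_Mito libraries and then the 3 mAC libraries. The Fosl1 share runs from 8.96% in mAC 3 to 30.1% in mAC 1, while Junb stays between 37.6% and 41.4%.

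Atf3, a stress-induced leucine zipper protein that pairs with JUN proteins and mostly represses, had its lowest library where Fosl1 and Dusp1 had their highest. Atf3 (ENSMUSG00000026628, chromosome 1, 191170296 to 191218039) was at 3.73, 5.42 and 5.11 FPKM in mAC_Mito and 2.84, 3.54 and 5.24 FPKM in mAC. The 3 libraries above 5 FPKM were mAC_Mito 2, mAC_Mito 3 and mAC 3, and the lowest was mAC 1. The fit gave a log2 fold change of 0.28 (standard error 0.20, 95% interval -0.17 to 0.73), and it was 0.14 without mAC 1 and 0.52 without mAC 3 (edgeR unadjusted p = 0.0144, adjusted p = 0.931, where the 14 alternatives gave 0.787 to 1).

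The 2 transcription factors outside AP-1 had the estimates nearest to 0 together with Junb. Egr1 (ENSMUSG00000038418, chromosome 18, 34859823 to 34864984), a zinc finger protein induced by serum and strain, was at 31.0, 32.7 and 35.3 FPKM in mAC_Mito and 42.0, 28.9 and 27.7 FPKM in mAC. All 3 mAC_Mito libraries lay between mAC 1 and the other mAC libraries. With all libraries the log2 fold change was -0.03 (standard error 0.18, 95% interval -0.43 to 0.37), and it was 0.245 without mAC 1 (edgeR unadjusted p = 0.0296, adjusted p = 0.989). Over the 14 alternative fits its adjusted p ran from 0.935 to 1. Nr4a1 (ENSMUSG00000023034, chromosome 15, 101254269 to 101274795), an orphan nuclear receptor also called NUR77, was at 9.46, 7.92 and 10.6 FPKM in mAC_Mito and 9.97, 8.97 and 8.90 FPKM in mAC. The highest and the lowest FPKM both belonged to mAC_Mito. This gave a log2 fold change of -0.01 (standard error 0.14, 95% interval -0.33 to 0.30).

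Ier2, a small nuclear protein of the early serum response, was the most even of the 10. Ier2 (ENSMUSG00000053560, chromosome 8, 84661331 to 84662854) was at 26.0, 25.4 and 28.3 FPKM in mAC_Mito and 25.1, 29.0 and 28.7 FPKM in mAC. Its pooled within-group SD was 0.079 on the log2 CPM scale, larger than that of 8.05% of genes tested, and the log2 fold change was -0.07 (standard error 0.10, 95% interval -0.29 to 0.14). By the root mean square difference of centred log2 CPM over the 6 libraries, Ier2 and Junb were each other's nearest of the 10, at 0.058. Ier2 was also the nearest to Fos (0.123), Jun (0.150) and Nr4a1 (0.148). The root mean square of the centred values themselves was 0.074 for Ier2, 0.117 for Fos and 0.098 for Jun, so Fos and Jun lay nearer to a constant level than to Ier2. This is a description and has no test.

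Dusp1, a nuclear phosphatase that inactivates the p38, JNK and ERK kinases and so ends the response that induces it, was the most abundant of the 10. Dusp1 (ENSMUSG00000024190, chromosome 17, 26505590 to 26562128) was at 47.3, 35.8 and 39.4 FPKM in mAC_Mito and 55.0, 45.0 and 41.3 FPKM in mAC. The 2 lowest libraries were mAC_Mito 2 and 3, but mAC_Mito 1 was above mAC 2 and 3. Its log2 fold change came to -0.23 (standard error 0.17, 95% interval -0.61 to 0.15). It was -0.05 without mAC 1 and -0.39 without mAC_Mito 1 (edgeR unadjusted p = 0.0498, adjusted p = 0.738, where the 14 alternatives gave 0.738 to 1). Its gene model shares 640 bases with Ergic1 and 956 with Gm8225, and that of Jun 689 with Junos, so reads there cannot be told apart without strand.

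**Figure D3:**
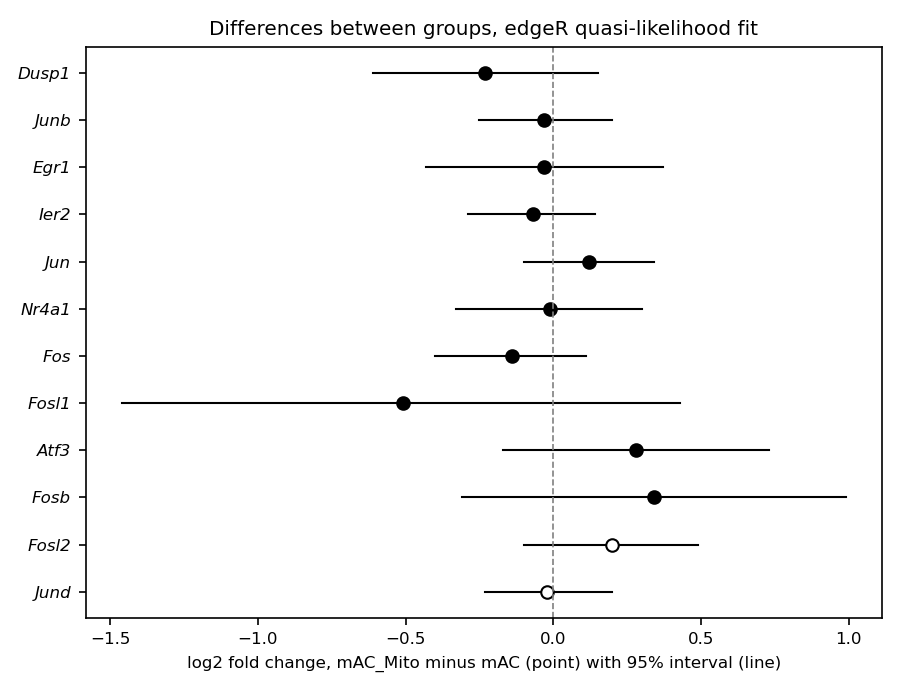
Log2 fold change, mAC_Mito minus mAC (horizontal axis), with its 95% interval from the edgeR fit on 3 libraries a group, for the 10 genes (filled) and their relatives Fosl2 and Jund (open). Every interval includes 0, and the widest is that of Fosl1, from -1.46 to 0.43.

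Over the libraries the 10 genes did not move as a block. Fosl1, Egr1, Nr4a1 and Dusp1 had their highest log2 CPM in mAC 1, whereas Atf3 and Junb had their lowest there. Of the 10, 7 were above their own mean in mAC 1, 8 in mAC_Mito 3 and 2 in mAC_Mito 2. The remaining libraries, mAC_Mito 1, mAC 2 and mAC 3, had 6, 5 and 3 above. The median of the pooled within-group SD was 0.243 for the 10 and 0.210 over all genes tested. The genes fell on both sides of it: Fosl1, Fosb, Atf3, Egr1 and Dusp1 had 0.277 to 0.769, and Nr4a1, Fos, Junb, Jun and Ier2 had 0.079 to 0.208.

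**Figure D4:**
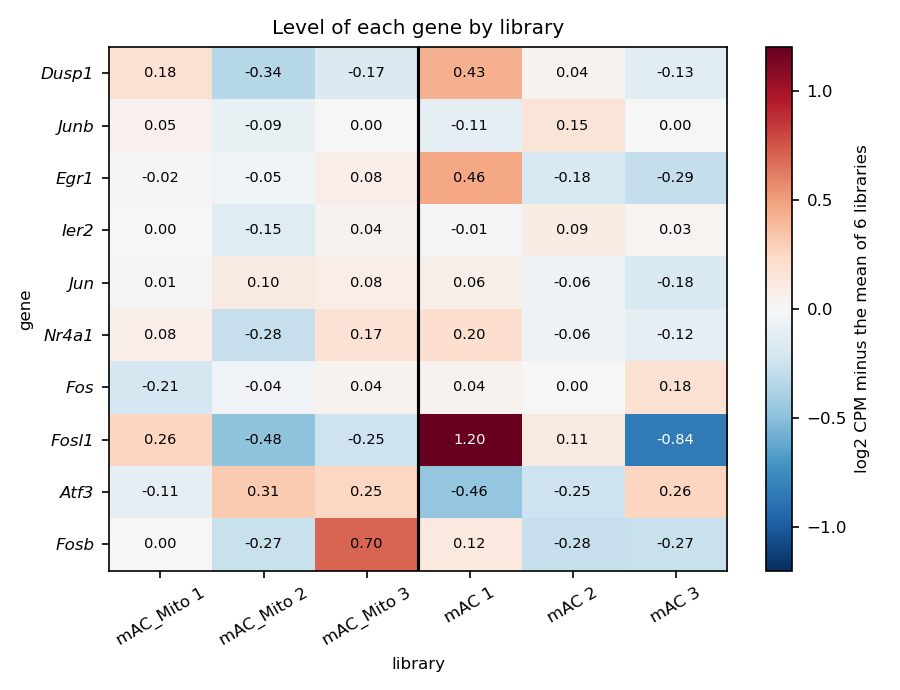
Log2 CPM of each gene (rows) minus its mean over the 6 libraries, in the mAC_Mito libraries left of the line and the mAC libraries right of it. In mAC 1 Fosl1 stands at 1.20 and Atf3 at -0.46, and in mAC_Mito 3 Fosb stands at 0.70.

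The order of the libraries in Fosl1, Dusp1 and Atf3 followed a measure of the whole library, a relation chosen after the values were seen. Genes of the mitochondrial genome took 5.66%, 2.95% and 3.44% of counts in mAC_Mito 1, 2 and 3 and 7.38%, 4.76% and 3.18% in mAC 1, 2 and 3. Within each group the 3 libraries had the same order in this share as in the log2 CPM of Fosl1 and of Dusp1, and the reverse order in that of Atf3. Over the 6 libraries Pearson's r was 0.96 for Fosl1 (exact permutation p = 0.00417, adjusted over 10 genes 0.0208), 0.98 for Dusp1 (exact p = 0.00278, adjusted 0.0208) and -0.94 for Atf3 (exact p = 0.00972, adjusted 0.0324). Spearman's rho was 0.94, 0.94 and -0.94, each with an exact two-sided p of 0.0167 and an adjusted p of 0.0556, so the rank test missed the threshold of 0.05 after adjustment. Without mAC 1 and mAC_Mito 1, the libraries farthest from the median share, r over the remaining 4 was 0.83, 0.89 and -0.99. Because the share was chosen after the order of the libraries was seen, the p-values of these relations are descriptive and do not measure chance.

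For the other 7 genes the adjusted exact permutation p was 0.253 or more for r and 0.146 or more for rho. These values are descriptive in the same way. Nr4a1 had r of 0.67 and rho of 0.83 (exact p = 0.15 and 0.0583, adjusted 0.3 and 0.146). Egr1 had r of 0.72 and rho of 0.6 (exact p = 0.101 and 0.242, adjusted 0.253 and 0.483). The r of Egr1 was -0.19 without the 2 farthest libraries, so that relation rested on them. Junb had r of -0.08 over all 6 and 0.97 over the 4, and Ier2 0.20 and 0.73. With Fos, Fosb and Jun they had r between -0.32 and 0.20 and rho between -0.20 and 0.37, with adjusted p of 0.829 or more. A rho of at least 0.94 in size was found for 8.35% of all genes tested, 4.28% positive and 4.07% negative. The first principal component of all genes put the libraries in the same order as the share, with scores of -21.2, 32.8 and 15.9 in mAC_Mito 1, 2 and 3 and -51.1, -5.3 and 28.9 in mAC 1, 2 and 3.

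Markers of other cells did not follow that order throughout. In mAC 1, the library highest in Fosl1, the mean centred log2 CPM was -0.412 for the 4 adipocyte markers, -0.34 for the 5 skeletal muscle markers and -0.368 for the 6 macrophage markers. In the other 5 libraries it was -0.12 to 0.228, -0.358 to 0.459 and -0.086 to 0.457. The macrophage markers did not agree: Cd68 was at 0.41 in mAC 1, its highest library. The rest were there at -0.2 (Cd14) to -0.99 (Ptprc, with 32 counts). Among the muscle markers Ckm ranged widest, from 0.96 in mAC_Mito 1 to -1.19 in mAC 2, on 19 to 85 counts a library. The adipocyte and muscle means were highest, 0.228 and 0.459, in mAC_Mito 1, which was next to mAC 1 in mitochondrial share and in Fosl1. Summed FPKM of the muscle markers was 21.9 to 26.4 in mAC_Mito and 15.8 to 24.1 in mAC. The part of these markers, and of the mitochondrial share, in the levels of the 10 genes was not tested.

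**Figure D5:**
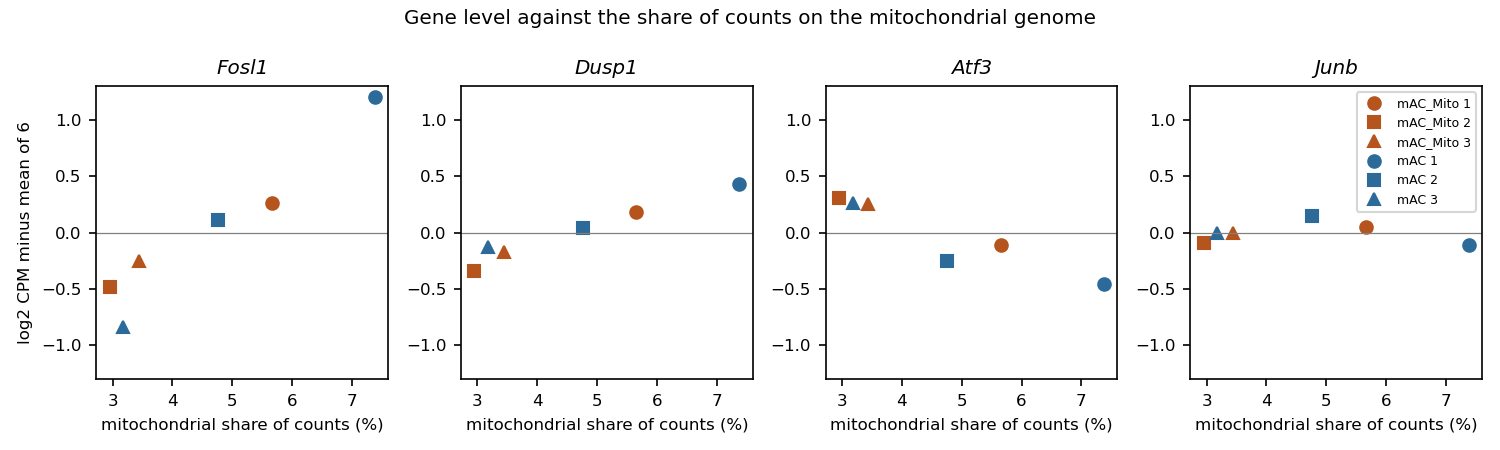
Log2 CPM minus the mean of 6 libraries (vertical axis) for Fosl1, Dusp1, Atf3 and, for contrast, Junb, against the share of counts on the mitochondrial genome (horizontal axis, %), 1 point per library. Fosl1 and Dusp1 climb with the share (r of 0.96 and 0.98), Atf3 goes down (r of -0.94) and Junb does neither (r of -0.08).

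The wider network of these genes was read from lists chosen with earlier results of these data known. No gene of any list passed the adjusted threshold in either direction in edgeR or DESeq2. Of 13 other AP-1 and related leucine zipper genes 11 were tested, with a median log2 fold change of 0.048 and 0 at an unadjusted p under 0.05. Jund, the JUN gene expressed without stimulation, was at 40.7 ± 1.04 FPKM in mAC_Mito and 40.8 ± 2.87 in mAC, and Jdp2, a repressor of AP-1, at 27.4 ± 1.99 and 28.1 ± 2.90 (SD, n = 3). Fosl2 was at 16.6 ± 3.55 FPKM in mAC_Mito and 14.3 ± 1.22 in mAC, and Atf7 at 4.97 ± 0.353 and 4.22 ± 0.488. All 4 overlapped between the groups.

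Of 33 other immediate early genes 32 were tested, 16 above and 16 below 0, with a median of -0.003. At an unadjusted p under 0.05 there was 1, where all genes had 3.19%. It was Sgk1, a kinase induced by serum and glucocorticoid, at 20.7, 24.3 and 23.9 FPKM in mAC_Mito and 25.9, 27.8 and 28.7 FPKM in mAC. Every mAC_Mito library was below every mAC library, with a log2 fold change of -0.28 (standard error 0.09, edgeR unadjusted p = 0.0103, adjusted p = 0.99992). Csrnp1, a nuclear protein gene, separated the other way, at 2.53, 2.46 and 2.55 FPKM in mAC_Mito and 1.70, 2.28 and 2.35 FPKM in mAC (edgeR unadjusted p = 0.121, adjusted p = 0.99992). These 2 of 32 are 6.25%, against 8.31% of all genes without overlap. The 3 most abundant, the matricellular gene Ccn1, the GTPase gene Rhob and the stress gene Gadd45g, were at 366 ± 17.1, 61.9 ± 7.29 and 53.7 ± 7.62 FPKM in mAC_Mito and 356 ± 38.2, 56.6 ± 5.67 and 48.4 ± 13.2 FPKM in mAC. They overlapped between the groups.

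Upstream of these promoters, 25 kinases, coactivators and transcription factors were all tested, with a median log2 fold change of -0.042. The most abundant, the ERK kinase gene Mapk3, was at 62.5, 46.6 and 55.5 FPKM in mAC_Mito and 65.7, 61.2 and 48.2 FPKM in mAC. Elk4, a partner of serum response factor, had the smallest p of the list, at 1.80, 2.72 and 2.39 FPKM in mAC_Mito and 1.56, 1.36 and 1.94 FPKM in mAC (edgeR unadjusted p = 0.016, adjusted p = 0.99992). Its groups overlapped in FPKM and did not in log2 CPM, where mAC_Mito 1 and mAC 3 were both at 13.9 CPM after rounding. It was the only gene of the 25 without overlap, or 4%, against 8.31% of all genes. Of 15 feedback inhibitors and decay factors 14 were tested, 11 above and 3 below 0, with a median of 0.059 and 0 at an unadjusted p under 0.05. Zfp36l2, which speeds decay of AU-rich mRNAs, was at 50.6 ± 4.68 and 46.6 ± 0.888 FPKM in mAC_Mito and mAC. Spry4, an inhibitor of receptor tyrosine kinase signalling, was at 1.04 ± 0.207 FPKM in mAC_Mito and 0.77 ± 0.145 in mAC, without overlap in log2 CPM. No other gene of these 14 lacked overlap, so the share was 7.14%, against 8.31% of all genes.

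Genes known as AP-1 targets in connective tissue cells went both ways. All 18 were tested, 9 above and 9 below 0, with a median log2 fold change of -0.033, and 3 had an unadjusted p under 0.05, 1 higher and 2 lower in mAC_Mito, where all genes had 3.19%, 2.1% higher and 1.09% lower. In 5 of the 18, or 27.8%, the groups did not overlap in log2 CPM, 2 higher and 3 lower in mAC_Mito, beside 8.31% of all genes, 3.93% higher and 4.38% lower. Mmp9 and Ccnd1 were the 2 higher ones, named because of these values. Ptgs2, the inducible cyclooxygenase, had the smallest p, at 17.5, 21.5 and 19.1 FPKM in mAC_Mito and 28.0, 23.0 and 24.3 FPKM in mAC. Its log2 fold change was -0.41 (standard error 0.12, edgeR unadjusted p = 0.00854, adjusted p = 0.99992). Timp1, the most abundant, was at 947 ± 96.7 FPKM in mAC_Mito and 1076 ± 84.5 in mAC.

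Heat shock genes, another class raised by handling, had 0 of 11 at an unadjusted p under 0.05. All 11 were tested, 5 above and 6 below 0, with a median log2 fold change of -0.064. Hspa8, the constitutive chaperone, was at 446 ± 13.3 FPKM in mAC_Mito and 477 ± 13.6 in mAC. Hsp90aa1, the inducible form of HSP90, was at 154, 177 and 149.7 FPKM in mAC_Mito and 163, 175 and 196 FPKM in mAC, with the smallest p of the list (edgeR unadjusted p = 0.117, adjusted p = 0.99992). Its groups overlapped in FPKM, and in log2 CPM every mAC_Mito library was below every mAC library. That held for no other gene of the 11, so the share without overlap was 9.09%, against 8.31% of all genes.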

How the data were processed

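RNA was sequenced in 6 libraries, 3 a group. The authors deposited raw counts per gene and FPKM, per the file headers. Bowtie 0.12.2, HISAT2 2.0, StringTie 1.3.0 and mm8 stand in the submitters' processing notes, with no roles. The table's coordinates are instead those of GRCm38: 26821 of 26902 shared identifiers (99.7%) have at least 1 end as in GENCODE M21. The counting rule is not given in the sources used here.

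Counts were fitted with edgeR 4.0.16 in R 4.3.3 (filterByExpr with minimum count 10 and minimum total 15, TMM scaling, quasi-likelihood test, two-sided, Benjamini-Hochberg adjustment over 17645 genes, threshold 0.05). Standard errors and 95% intervals are those implied by the F statistic. Log2 CPM used a prior count of 2. DESeq2 1.42.0 and limma 3.58.1 were alternatives. On simulated data, edgeR recovered 83 of 100 genes changed by 1 on the log2 scale, among 17391 genes, with 7 false calls. The simulation gave every gene the same dispersion and changed only well-counted genes. It therefore does not give the power for a gene as variable as Fosl1. Replicate libraries differed beyond sampling noise, with a chi-square per degree of freedom of 25.2 or more.

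The members and lists were chosen with earlier results of these data known. Named genes were the 10 and, from each list, the most abundant and that with the smallest p, plus the next 2 by FPKM for other AP-1 and immediate early genes. Beyond these, cell type markers and genes overlapping a member were named where a value needed them. Csrnp1, Mmp9 and Ccnd1 were named after their values were seen. Some list members are not reported here by name.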

Additional observations from a re-analysis of the deposited data

How the results depend on the processing

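Over 14 alternatives the number of the 10 genes past the threshold was 0 each time. The number of genes past it in the whole table was 2. It was 4 in DESeq2, 0 without a filter on low counts and 1 in limma on log2(FPKM + 1), and 0 to 4 with 1 library left out. The 10 genes kept their direction in 129 of 140 fits. The log2 fold change turned to 0.17 for Fosl1 without mAC 1, where leaving out 1 library gave -0.877 to 0.17. For Junb the fits without 1 library gave -0.0798 to 0.0397, turning to 0.0137 without mAC_Mito 2 and 0.0397 without mAC 2. For Egr1 it was -0.17 to 0.245 without 1 library, turning without mAC 1, and 0.0275 and 0.0289 in limma with pseudocounts of 1 and 0.1. For Nr4a1 it was -0.104 to 0.11 without 1 library, with 0.11 without mAC_Mito 2, 0.0919 without mAC 1 and 0.000896 and 0.000234 in limma. The causes were not tested. Deviations of same-numbered libraries correlated at 0.124, -0.06 and -0.012, and those of differently numbered libraries at -0.14 to 0.154. These values cannot tell whether the replicate numbers pair the libraries. Library 1 had the highest mitochondrial share of its group, 5.66% in mAC_Mito and 7.38% in mAC, and the cause was not tested. With the replicate number as a block 2 genes and 0 of the 10 passed, and Egr1 turned to 0.00922.

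The median within-group SD of the 10 was 0.243, against 0.148 on log2(FPKM + 1) and 0.216 with library totals, and the groups overlapped for all 10 in each. Over all genes tested the median was 0.21, 0.122 and 0.214 in the same order. With library totals the 10 were thus close to all genes. Pearson's r with the mitochondrial share was also taken on log2(FPKM + 1) and on library totals without mitochondrial genes, chosen after seeing the data. It kept its sign, at 0.958 to 0.968 for Fosl1, 0.963 to 0.972 for Dusp1 and -0.964 to -0.945 for Atf3. The adjusted exact permutation p of r stayed at 0.0208, 0.0208 and 0.0324, and is descriptive here too. Spearman's rho is not reported for these alternatives. Depth limits Fosb most, with 118 to 236 counts a library.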
